A study of Arabidopsis thaliana with 14 samples.

Results

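Siliques of jas-3 plants labelled as controls of the solvent DMSO were compared with siliques of untreated jas-3 plants. The members were chosen by their labels alone and are 5 of the 14 libraries of the series, 3 from DMSO control plants and 2 from untreated jas-3 plants. All 5 are Col-0 plants that carry the jas-3 allele, a T-DNA insertion in JASON. Mutants of this gene form unreduced pollen, so their siliques hold diploid seeds beside aborting triploid seeds. WT Col-0 libraries (n = 2) are shown beside them, and the line Aza1, jas-3 plants derived from 5-Azacytidine treatment, has 3 libraries labelled eM1 and 4 labelled eM2, generations that the study's text names eM2 and eM3. For the solvent control, seeds were sown on MS plates with sucrose and DMSO. The seedlings were later moved to soil in a greenhouse with a 16 h photoperiod. Whether the DMSO siliques grew on these plants or on their progeny is not given in the sources used here. Values given below as under DMSO therefore refer to the label. Each library came from the RNA of 3 whole siliques taken 6 to 9 days after anthesis. Whether the untreated plants were also started on plates, and the hour of harvest and the sowing and sequencing dates of each group, are not given in the sources used here, so DMSO and any other difference in the handling of these plants cannot be told apart. Whether the replicates of the DMSO and untreated jas-3 groups were separate plants is not stated in these sources either. The p-values measure the spread between libraries within groups, estimated over all 14 libraries of the series.

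The Arabidopsis clock is a loop of genes that repress each other at different times of day. CCA1 and LHY, MYB factors made around dawn, repress evening genes through a promoter sequence called the evening element, and the evening genes in turn hold CCA1 and LHY down. The clock passes its phase to output genes, among them genes of flowering by day length, of light signalling, of chlorophyll synthesis and of the nightly breakdown of starch.

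Gene counts summed to between 40526464 and 43974069 per library, and replicates of a group spread more than counting error. Reads on JASON (AT1G06660) numbered 14 and 14 in WT, 188 and 225 in the jas-3-labelled libraries and 169, 148 and 111 in the DMSO libraries. It was thus not lower under the label of its mutant allele, and counts over a whole gene cannot decide whether the labels are right, so directions are given for the jas-3-labelled libraries. The endosperm of aborting triploid seeds is known to cellularise late, and its markers are given for this reason. FIS2, a Polycomb gene of the endosperm that shares 44 bases with AT2G35680, had 0.325 and 0.466 CPM in WT, 4.77 and 6.28 CPM in the jas-3-labelled libraries and 5.0, 3.95 and 3.54 CPM in the DMSO libraries (adjusted p = 3.54e-05 for jas-3 against WT, edgeR). The 7 endosperm markers summed to 23.9 and 22.7 CPM in WT and to between 77.6 and 111 CPM in the jas-3-labelled and DMSO libraries. IKU2, which shares 307 bases with AT3G19710, made up 20.8 and 20.4 CPM of the WT sums. It had 28.0 and 31.8 CPM in the jas-3-labelled libraries and 36.2, 44.0 and 38.7 CPM in the DMSO libraries. Levels are given as CPM, counts scaled to library size by TMM. Differences are log2 fold changes of DMSO over jas-3 from edgeR's quasi-likelihood test on all libraries, with their standard errors (SE) and with p-values adjusted over 22359 tested genes by the Benjamini-Hochberg method. Of the gene counts, 7.97% and 17.0% fell on seed storage proteins in the jas-3-labelled libraries, 10.7%, 19.5% and 22.6% in the DMSO libraries and 36.7% and 42.5% in WT. The shares of both jas-3 groups overlapped, and in whole siliques fewer cells of a type and less RNA per cell cannot be told apart. None of the 39 marker genes tested passed an adjusted p of 0.05 in edgeR or DESeq2. They came from 6 lists for storage proteins, fruit wall, seed coat, endosperm, embryo and floral organs with pollen. Of the 39, 4 had an unadjusted p under 0.05 in edgeR, beside 2488 of all 22359 tested genes. Among the floral markers only MS1 was at 0 in all 5 libraries.

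Few genes separated the groups strongly. With an absolute log2 fold change no smaller than 2 and an adjusted p under 0.01, 20 genes were higher in the DMSO libraries (0.0894% of those tested) and 27 were lower (0.121%). At an adjusted p under 0.05 with no limit on the fold change, 134 genes were higher (0.599%) and 224 were lower (1.0%), which is 1.60% in both directions. The groups did not overlap in any of these 358 genes, while 26.6% of all tested genes were separated in this way. With DESeq2, 720 of 22125 tested genes passed an adjusted p of 0.05, more than in edgeR. The DESeq2 counts given for single lists below stand beside that number. Without jas-3 replicate 1, 22 of the 47 genes called by the stricter rule were called and no other gene was, and without jas-3 replicate 2, 28 genes were, 22 of them among the 47. At an adjusted p under 0.05, 125 and 161 genes passed without these libraries, 219 without DMSO replicate 1 and 190 without DMSO replicate 2. Of 293 tested genes in 23 lists for the clock, its outputs, light, metabolism, stress and tissue markers, 49 passed the adjusted p of 0.05, 16 higher and 33 lower, and 32 and 34 passed without jas-3 replicate 1 and 2. Clock, photoperiod and clock output genes made up 33 of these 49.

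Morning genes were lower in the DMSO libraries. Of 13 tested, 11 fell at an adjusted p under 0.05 and 5 of them by a log2 fold change of at least 2, none rose, and their median log2 fold change was -1.69 against -0.01 for all tested genes. AT1G01520, AT4G01280 and AT5G52660 were written for this list but left off, because the annotation does not pair their IDs with the symbols written. Their log2 fold changes were -2.16, -0.10 and -0.04, and none passed (adjusted p = 0.0642, 0.84 and 0.967, edgeR). LHY was at 76.4 and 82.7 CPM in the jas-3-labelled libraries, at 9.0, 8.67 and 5.64 CPM in the DMSO libraries and at 138 and 155 CPM in WT. Its DMSO libraries lay 10.2-fold below those labelled jas-3 on average, with no overlap (log2 fold change -3.35, SE 0.21, adjusted p = 1.12e-05, edgeR). CCA1 had 69.5 and 80.6 CPM in the jas-3-labelled libraries, 14.9, 15.7 and 12.1 CPM under DMSO and 103 and 131 CPM in WT. CCA1 thus fell in every DMSO library (log2 fold change -2.40, SE 0.18, adjusted p = 2.07e-05, edgeR). The jas-3-labelled libraries were themselves below WT, with log2 fold changes of -0.88 for LHY and -0.64 for CCA1 (adjusted p = 0.00962 and 0.0202, edgeR).

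The partners of the dawn factors went the same way. RVE8, a MYB factor that activates evening genes in the afternoon, had 13.6 and 15.8 CPM in the jas-3-labelled libraries and 2.64, 2.69 and 3.35 CPM in the DMSO libraries, beside 29.3 and 33.4 CPM in WT (log2 fold change -2.34, SE 0.28, adjusted p = 0.000851, edgeR). RVE1, which links the clock to auxin, had 22.8 and 21.4 CPM against 5.98, 4.67 and 4.58 CPM, with WT at 12 and 15.2 CPM (log2 fold change -2.12, SE 0.16, adjusted p = 3.16e-05, edgeR). WT therefore lay between the jas-3 groups for RVE1, unlike for LHY, CCA1 and RVE8, where WT was the highest group. LNK4, of the LNK coactivators that work with the RVE factors, fell from 18.9 and 22.2 CPM to 4.79, 5.79 and 4.71 CPM (log2 fold change -2.01, SE 0.20, adjusted p = 0.000166, edgeR). LNK1, LNK2 and LNK3 fell as well, with log2 fold changes of -1.1, -1.68 and -1.69. RVE4 fell by 1.25 and RVE7 by 0.87 on the log2 scale, the latter not past the threshold without jas-3 replicate 1, DMSO replicate 2 or DMSO replicate 3 (edgeR adjusted p = 0.283, 0.0784 and 0.0548). Without jas-3 replicate 2, RVE8 and LNK4 were below the stricter rule, RVE8 at an adjusted p of 0.0129 and LNK4 at a log2 fold change of -1.89 (edgeR), and LNK4 also without DMSO replicate 1 or 3, at -1.97 and -1.96.

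PRR9 and PRR7 are pseudo-response regulators that repress CCA1 and LHY from the morning on, and PRR9 passed the test while PRR7 did not. PRR9 had 19.5 and 22.7 CPM in the jas-3-labelled libraries, 5.02, 6.74 and 7.42 CPM in the DMSO libraries and 34.5 and 44.5 CPM in WT (log2 fold change -1.72, SE 0.24, adjusted p = 0.00245, edgeR). PRR7 had 73.8 and 88.1 CPM, then 52.9, 51.1 and 69.7 CPM under DMSO, with WT at 104 and 109.7 CPM (log2 fold change -0.48, SE 0.15, adjusted p = 0.173, edgeR). All DMSO libraries were below both jas-3-labelled libraries for PRR7 too, and of the 5 fits without 1 library it passed in the one without DMSO replicate 3, at a log2 fold change of -0.64 (adjusted p = 0.0352, edgeR). RVE2 was the other gene kept on the morning list that did not pass, at -0.33 (adjusted p = 0.73, edgeR).

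Evening genes were higher. Of 12 tested, 7 rose at an adjusted p under 0.05, 3 of them by at least 2 on the log2 scale, none fell, and the median log2 fold change of the list was 1.34. FKF1, a blue light receptor and F-box protein that removes repressors of flowering, was nearly silent in the jas-3-labelled libraries at 0.925 and 1.96 CPM, and had 34.4, 38 and 53.0 CPM in the DMSO libraries. WT was at 2.73 and 3.50 CPM, so FKF1 was low in all 4 WT and jas-3-labelled libraries (29.1-fold higher under DMSO than in jas-3, log2 fold change 4.87, SE 0.33, adjusted p = 1.12e-05, edgeR). PRR5, an afternoon repressor of CCA1 and LHY, had 4.70 and 6.28 CPM in the jas-3-labelled libraries and 54.3, 61.3 and 68.8 CPM under DMSO, with WT at 7.87 and 7.93 CPM (log2 fold change 3.49, SE 0.20, adjusted p = 7.92e-06, edgeR). TOC1, the evening repressor of the same family, rose from 20.5 and 17.0 CPM to 49.5, 50.1 and 57.3 CPM, with WT at 15.3 and 19.7 CPM (log2 fold change 1.48, SE 0.15, adjusted p = 0.000223, edgeR). The 3 genes rose without overlap of the groups, and WT and the jas-3-labelled libraries overlapped for TOC1.

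Of the evening complex, a repressor built of ELF3, ELF4 and LUX, the genes ELF4 and LUX rose. ELF4 had 0.888 and 1.06 CPM in the jas-3-labelled libraries and 7.13, 7.36 and 9.92 CPM in the DMSO libraries (log2 fold change 3.06, SE 0.27, adjusted p = 7.06e-05, edgeR). LUX had 7.85 and 9.40 CPM and then 32.1, 33.5 and 30.1 CPM (log2 fold change 1.89, SE 0.13, adjusted p = 1.22e-05, edgeR). ELF3 had 30.3 and 32.4 CPM and then 39.8, 35.1 and 40.6 CPM, and did not pass the test (log2 fold change 0.30, adjusted p = 0.257, edgeR). ELF4 and LUX in WT, at 1.3 and 0.777 CPM and at 9.10 and 9.56 CPM, lay near the jas-3-labelled libraries. CHE, a TCP factor that binds the CCA1 promoter, rose by 1.53 on the log2 scale (SE 0.21, adjusted p = 0.00256, edgeR). GI, a scaffold that joins FKF1 in the afternoon, had 42.5 and 45.6 CPM in the jas-3-labelled libraries, 75.0, 68.9 and 95.6 CPM under DMSO and 58.1 and 72.2 CPM in WT (log2 fold change 0.86, SE 0.16, adjusted p = 0.0204, edgeR). Its WT and DMSO libraries overlapped, and the call was lost without jas-3 replicate 1 or 2 (edgeR adjusted p = 0.227 and 0.125). PRR3 at 1.2 (adjusted p = 0.053, edgeR) and BOA at 0.82, LKP2 at 0.15 and ZTL at -0.29 on the log2 scale did not pass.

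**Figure D1:**
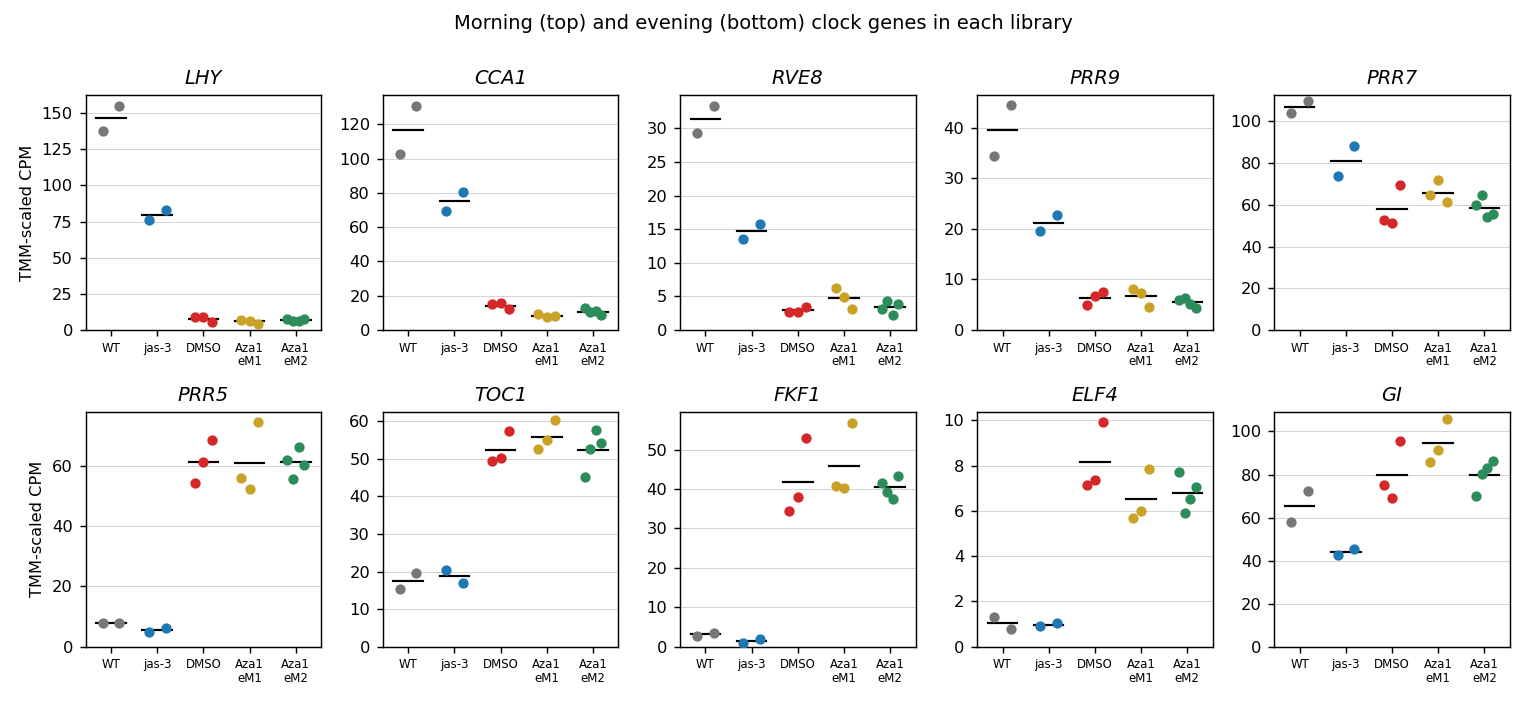
CPM of 5 morning genes (top row) and 5 evening genes (bottom row) in each library, on linear axes that start at 0, with 1 point per library and a black line at the mean of the group. For LHY, CCA1, RVE8 and PRR9 the DMSO libraries lie below both WT and jas-3, and for PRR5, TOC1, FKF1 and ELF4 above both. PRR7 and GI show smaller differences, and the Aza1 libraries of both generations are plotted for comparison.

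A ratio of 2 genes inside a library does not depend on how libraries are scaled. The log2 ratio of GI over LHY counts was -0.85 and -0.86 in the jas-3-labelled libraries, 3.06, 2.99 and 4.08 in the DMSO libraries and -1.25 and -1.1 in WT. LHY thus had more counts than GI in all 4 libraries of untreated plants and fewer in all 3 of DMSO plants. For TOC1 over CCA1 the log2 ratio was -1.76 and -2.24, then 1.74, 1.67 and 2.25, with WT at -2.74 and -2.73. In the Aza1 libraries the ratio of GI over LHY ran from 3.65 to 4.60 in eM1 and from 3.23 to 3.81 in eM2. For TOC1 over CCA1 it ran from 2.48 to 2.88 in eM1 and from 1.81 to 2.65 in eM2. These ratios too were above 0 in every Aza1 library.

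**Figure D2:**
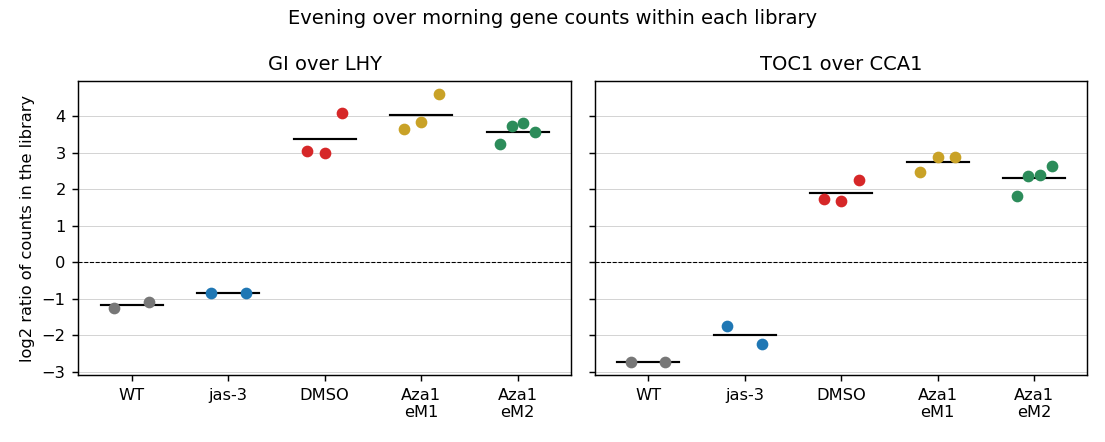
Log2 ratio of GI over LHY counts (left) and of TOC1 over CCA1 counts (right) in each library, with 1 point per library, a black line at the group mean and a dashed line at equal counts. WT and jas-3 libraries lie between -2.74 and -0.85, and the DMSO libraries lie between 1.67 and 4.08.

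Promoters of selected genes that changed are shown because the known link between the dawn factors and evening genes runs through the evening element. A window of 300 bases before the annotated gene start of RefSeq TAIR10.1 was searched on both strands for the evening element AAAATATCT, the CCA1-binding site AAAAATCT and the G-box CACGTG, which reads the same on both strands. Capitals mark evening elements, printed as AGATATTTT where they lie on the other strand, and G-boxes. The windows of GRP7 and FKF1, which rose, hold 3 and 1 evening elements.
GRP7, chr2:9266558-9266857, minus strand: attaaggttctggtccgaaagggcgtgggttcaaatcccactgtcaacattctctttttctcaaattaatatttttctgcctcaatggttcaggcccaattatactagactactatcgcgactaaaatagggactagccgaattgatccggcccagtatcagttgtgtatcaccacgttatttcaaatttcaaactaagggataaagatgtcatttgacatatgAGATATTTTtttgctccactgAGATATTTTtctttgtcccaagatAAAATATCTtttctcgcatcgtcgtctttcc
FKF1, chr1:25508339-25508638, plus strand: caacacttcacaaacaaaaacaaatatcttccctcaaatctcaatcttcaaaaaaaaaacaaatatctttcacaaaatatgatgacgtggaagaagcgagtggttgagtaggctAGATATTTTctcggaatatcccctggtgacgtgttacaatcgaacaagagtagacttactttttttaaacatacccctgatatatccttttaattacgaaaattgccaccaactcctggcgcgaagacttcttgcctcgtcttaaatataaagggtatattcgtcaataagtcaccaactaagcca
LUX, which also rose, holds 1 evening element and 1 G-box.
LUX, chr3:17182742-17183041, plus strand: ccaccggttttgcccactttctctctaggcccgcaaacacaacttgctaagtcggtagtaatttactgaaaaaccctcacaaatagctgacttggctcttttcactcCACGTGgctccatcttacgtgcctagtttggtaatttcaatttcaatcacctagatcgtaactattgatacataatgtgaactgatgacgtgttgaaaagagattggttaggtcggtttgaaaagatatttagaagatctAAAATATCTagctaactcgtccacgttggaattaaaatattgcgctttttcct
CCA1 and LHY, which fell, hold a G-box each and no evening element.
LHY, chr1:37872-38171, minus strand: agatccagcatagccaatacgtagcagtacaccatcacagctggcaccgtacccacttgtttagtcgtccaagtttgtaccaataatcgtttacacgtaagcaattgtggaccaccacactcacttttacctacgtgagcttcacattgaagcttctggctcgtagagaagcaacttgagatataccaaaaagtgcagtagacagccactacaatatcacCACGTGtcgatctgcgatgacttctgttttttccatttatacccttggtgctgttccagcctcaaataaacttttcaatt
CCA1, chr2:19245291-19245590, plus strand: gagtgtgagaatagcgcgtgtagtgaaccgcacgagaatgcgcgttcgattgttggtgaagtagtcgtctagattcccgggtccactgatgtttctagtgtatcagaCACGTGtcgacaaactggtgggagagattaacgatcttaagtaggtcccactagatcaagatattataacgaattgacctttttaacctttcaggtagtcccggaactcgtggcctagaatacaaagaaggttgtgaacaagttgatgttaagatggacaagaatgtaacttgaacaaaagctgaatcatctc

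In these windows, the evening elements of GRP7 began 76, 55 and 31 bases before the start and that of FKF1 186 bases before it. Over all 22263 tested genes with a window, 2.96% held an evening element, 8.20% a CCA1-binding site and 7.87% a G-box. Of the 134 genes higher at an adjusted p under 0.05, 30 held an evening element (22.4%), and of the 221 lower genes with a window 5 did (2.26%). By the stricter rule, 7 of the 20 higher genes (35.0%) and 1 of the 27 lower genes (3.70%) held one. ELF4, GI and COL9, which rose, held none, and COL2 and RVE7, which fell, held 1 each. Of the 12 evening clock genes, 5 held an evening element, which were PRR5, TOC1, LUX, FKF1 and BOA, although the window of PRR5 lies inside the gene as the deposited files annotate it. G-boxes were in 7 of the 13 morning clock genes (53.8%), in 6 of the 27 genes called lower (22.2%) and in 1 of the 20 called higher (5.00%), but at an adjusted p under 0.05 they were in 29 of the 221 lower (13.1%) and 16 of the 134 higher genes (11.9%). CCA1-binding sites were in 7.46% of the higher and 9.50% of the lower genes, near the share of all windows. These shares are descriptions and were not tested, and a match is not a binding site.

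**Figure D3:**
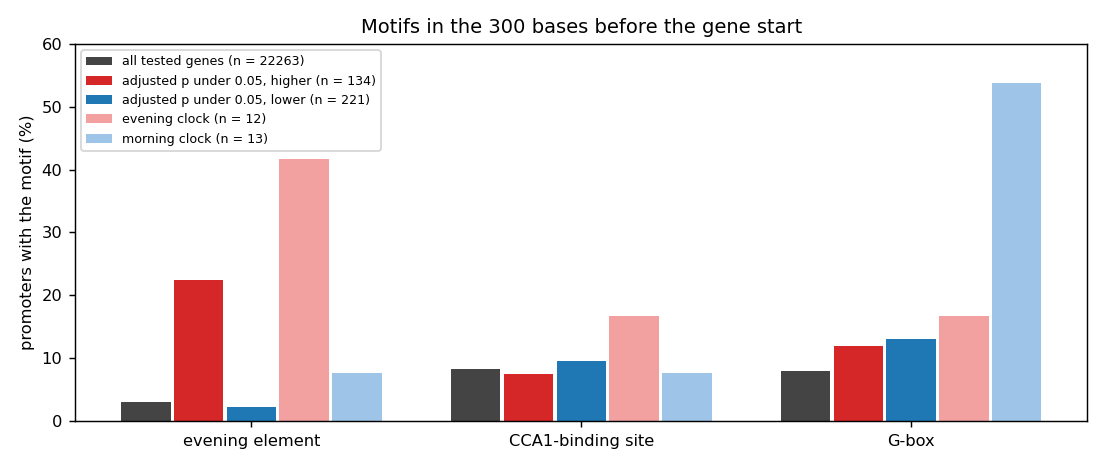
Percent of 300-base windows before the gene start that hold each motif, for all tested genes, for genes higher or lower at an adjusted p under 0.05 and for the evening and morning clock lists, with the number of windows in the legend. Evening elements are in 22.4% of the windows of higher genes against 2.96% of all, and G-boxes in 53.8% of those of morning clock genes against 7.87% of all.

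Clock output genes moved in both directions, 4 higher and 6 lower of 18 tested, with a median log2 fold change of -0.44. GRP7, a clock-controlled RNA-binding protein that feeds back on its own mRNA, had 106 and 92.1 CPM in the jas-3-labelled libraries, 812, 812 and 1144 CPM in the DMSO libraries and 75.7 and 42.2 CPM in WT. It was 9.32-fold higher under DMSO with no overlap (log2 fold change 3.22, SE 0.31, adjusted p = 0.00016, edgeR). Per kilobase of annotated gene span, introns included, it went from 86.4 FPKM to 806 FPKM, while LHY went from 17.7 FPKM to 1.73 FPKM. On this scale the order of their levels did not change but the gap widened. Its relative GRP8 had 82.6 and 74.1 CPM and then 208, 204 and 223 CPM (log2 fold change 1.43, adjusted p = 0.000851, edgeR), and WT overlapped with the jas-3-labelled libraries at 63.0 and 88.3 CPM. COR27, a light- and cold-regulated repressor of clock genes, had 6.53 and 6.13 CPM and then 20.7, 25.2 and 26.5 CPM, with WT at 8.0 and 8.32 CPM (log2 fold change 1.93, SE 0.17, adjusted p = 7.06e-05, edgeR). All DMSO libraries were above all others of these groups for COR27. AT4G33980, written for this list but left off because the annotation does not pair its ID with the symbol written, had 1.89 and 2.68 CPM in the jas-3-labelled libraries, 10.6, 8.4 and 16.1 CPM under DMSO and 3.45 and 4.2 CPM in WT, and was called higher by the stricter rule (log2 fold change 2.36, SE 0.30, adjusted p = 0.00131, edgeR). AT1G69570, left off the photoperiod list for the same reason, fell by 0.88 on the log2 scale (adjusted p = 0.0128, edgeR). AT2G34140 and AT1G26790, also left off that list, had log2 fold changes of 0.54 and -0.56 and did not pass (adjusted p = 0.574 and 0.651, edgeR).

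The B-box proteins of the output list are zinc-finger proteins of light signalling, and BBX18, BBX19, BBX24, BBX25 and BBX31 fell while BBX22 rose. BBX25, which with BBX24 weakens the action of HY5, had 36.9 and 37.0 CPM in the jas-3-labelled libraries, 7.22, 9.05 and 6.34 CPM under DMSO and 47.8 and 62.2 CPM in WT (log2 fold change -2.29, SE 0.17, adjusted p = 2.71e-05, edgeR). The annotated gene shares 48 bases with AT2G31390. BBX18, BBX19, BBX24 and BBX31 fell by 1.17, 1.42, 0.79 and 1.49 on the log2 scale, and BBX22, which promotes seedling greening, rose by 0.80. BBX21, BBX27, BBX28 and BBX29 did not pass the test (log2 fold changes of 0.11, 0.45, -0.30 and -0.58). BBX24 was lost without jas-3 replicate 1 (adjusted p = 0.0916, edgeR), BBX22 without either jas-3 replicate or DMSO replicates 1 and 2 (up to 0.297) and BBX31 without any single library (0.0614 to 0.165). CAT2, the main leaf catalase with a morning peak, fell by 1.06 (adjusted p = 0.0407, edgeR), a call that was also lost without any single library (0.0933 to 0.228). BBX30 and BBX32, with at most 1.66 CPM in the jas-3-labelled and DMSO libraries, had log2 fold changes of -4.22 and -3.03 that did not pass (adjusted p = 0.0687 and 0.113, edgeR).

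Of 10 genes of day-length flowering, 1 rose and 4 fell, with a median log2 fold change of -0.56. COL2, a relative of the flowering regulator CO, had 27.9 and 21.3 CPM in the jas-3-labelled libraries, 3.62, 3.32 and 1.99 CPM in the DMSO libraries and 10.4 and 15.5 CPM in WT (log2 fold change -3.04, SE 0.30, adjusted p = 0.000211, edgeR). WT lay between the groups. COL9, which represses CO, had 5.37 and 5.76 CPM, then 21.6, 18.9 and 26.3 CPM under DMSO, with WT at 2.73 and 4.51 CPM (log2 fold change 2.0, SE 0.22, adjusted p = 0.000354, edgeR). Before rounding, its fold change was just under the limit of the stricter rule. CDF1 and CDF3, Dof repressors of CO that FKF1 and GI remove, fell by 1.74 and 1.35 on the log2 scale, and COL1 fell by 1.41, lost without jas-3 replicate 2 (adjusted p = 0.0515, edgeR). FT, the florigen gene, averaged 146 CPM in the jas-3-labelled libraries and 141 CPM in the DMSO libraries (log2 fold change -0.05, SE 0.13, adjusted p = 0.947, edgeR). CO itself was under 1 CPM on average in both groups.

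**Figure D4:**
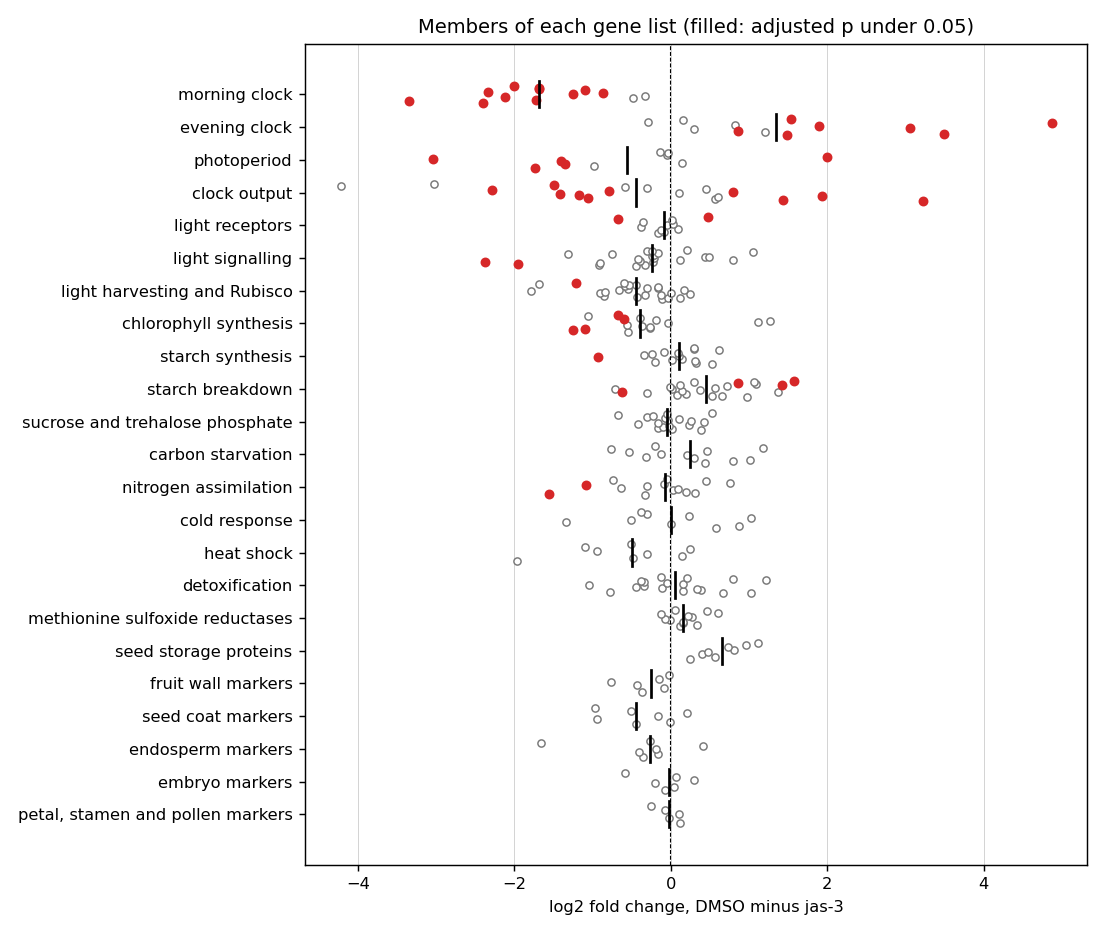
Log2 fold change of DMSO over jas-3 for each tested member of the 23 gene lists, with filled points at an adjusted p under 0.05, a black tick at the median of each list and a dashed line at the median of all tested genes, -0.01. Morning clock genes lie at or below -0.33 with a median of -1.69, and 7 evening clock genes are filled on the higher side. The 6 marker lists and the cold, heat, detoxification, carbon starvation and sucrose lists hold no filled point.

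Of 11 light receptor genes, 1 rose and 1 fell. PHOT2, the blue light receptor of chloroplast movement, had 65.2 and 65.9 CPM in the jas-3-labelled libraries and 39.1, 38.1 and 46.6 CPM in the DMSO libraries, with WT at 82.9 and 87.9 CPM (log2 fold change -0.67, SE 0.12, adjusted p = 0.0132, edgeR). UVR8, the UV-B receptor, had 37.6 and 35.3 CPM and then 44.9, 51.4 and 56.0 CPM, with WT at 54.6 and 59.0 CPM (log2 fold change 0.48, SE 0.11, adjusted p = 0.0459, edgeR). Both differences were small, and each call was lost in 4 of 5 fits without 1 library. For PHOT2 these were without jas-3 replicate 1 or 2 or DMSO replicate 1 or 2 (adjusted p = 0.11, 0.105, 0.0571 and 0.0595, edgeR) and for UVR8 without jas-3 replicate 1 or 2 or DMSO replicate 2 or 3 (0.226, 0.301, 0.122 and 0.0878). PHOT2 shares 2760 bases with AT5G58150, whose reads may have been counted with it. No phytochrome or cryptochrome gene passed, with log2 fold changes of -0.16 for PHYA, -0.09 for PHYB and -0.05 for CRY1.

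In light signalling, 2 of 23 tested genes fell and none rose, and with DESeq2 5 fell. SPA3, a partner of the ubiquitin ligase COP1, had 24 and 24 CPM in the jas-3-labelled libraries, 5.98, 4.63 and 7.59 CPM under DMSO and 31.1 and 38.6 CPM in WT (log2 fold change -1.96, SE 0.21, adjusted p = 0.000277, edgeR). SPA1 and SPA4 of the same family had log2 fold changes of -0.92 and -0.90 and did not pass (adjusted p = 0.067 and 0.0538, edgeR). HYH, a bZIP factor like HY5, had 4.26 and 6.51 CPM and then 0.651, 1.26 and 1.19 CPM, with WT at 10.1 and 11.4 CPM (log2 fold change -2.38, SE 0.38, adjusted p = 0.00616, edgeR). HYH passed the stricter rule with all libraries but in none of the 5 fits without 1 library, and without jas-3 replicate 2 its adjusted p was 0.0725. HY5 averaged 11.3 CPM and 9.66 CPM and did not pass (log2 fold change -0.23, adjusted p = 0.662, edgeR). SPA3 shares 57 bases with AT3G15350.

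In the list of light-harvesting proteins and Rubisco, 1 of 24 fell and none rose, 4 fell with DESeq2, and the median log2 fold change was -0.44. This gene was RCA, the activase that frees Rubisco of bound sugar phosphates, with 2140.3 and 1966 CPM in the jas-3-labelled libraries, 890.3, 886 and 886 CPM in the DMSO libraries and 1451 and 1749.8 CPM in WT. The DMSO libraries were nearly alike and 2.31-fold below those labelled jas-3 on average (log2 fold change -1.21, SE 0.20, adjusted p = 0.00862, edgeR), and the call was lost without jas-3 replicate 1 (0.0916). RBCS2B, a small subunit of Rubisco, had 524 and 305 CPM and then 159, 109 and 117 CPM and did not pass (log2 fold change -1.69, adjusted p = 0.0717, edgeR). No gene of a light-harvesting protein passed, the largest difference being that of LHCB2.3 at -1.79 (adjusted p = 0.135, edgeR), whose jas-3-labelled libraries were far apart at 56.4 and 18.3 CPM.

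Of 15 chlorophyll synthesis genes, 4 fell and none rose, and their median log2 fold change was -0.39. GUN4, which activates the magnesium chelatase, had 55.6 and 40.2 CPM in the jas-3-labelled libraries and 20.4, 21.7 and 18.5 CPM in the DMSO libraries, with WT at 28.5 and 27.1 CPM (log2 fold change -1.25, SE 0.22, adjusted p = 0.0135, edgeR). GLK2, a factor of chloroplast development, had 60.1 and 66.1 CPM and then 38.2, 45.1 and 34.6 CPM, with WT at 71.3 and 80.8 CPM (log2 fold change -0.68, SE 0.12, adjusted p = 0.0126, edgeR). WT was thus above both groups for GLK2 and between them for GUN4. CHLH, a subunit of the chelatase, and CAO, which makes chlorophyll b, fell by 1.1 and 0.60 on the log2 scale (adjusted p = 0.031 and 0.0236, edgeR). These 4 calls depended on single libraries. GUN4 was lost without jas-3 replicate 1 (0.205) or DMSO replicate 1 (0.0514), GLK2 without jas-3 replicate 1 (0.0612), jas-3 replicate 2 (0.135) or DMSO replicate 1 (0.0523), CHLH without either jas-3 replicate or DMSO replicates 2 and 3 (0.0773 to 0.286) and CAO without any single library (0.0536 to 0.295). PORB, a protochlorophyllide reductase, went the other way without passing, with 62.0 and 34.2 CPM and then 137, 108 and 103 CPM (log2 fold change 1.27, adjusted p = 0.0535, edgeR).

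Of 22 starch breakdown genes, 3 rose and 1 fell, with a median log2 fold change of 0.45. With DESeq2 10 rose and 1 fell, beside 720 of all 22125 tested genes that passed in either direction. In 13 of the 22 starch breakdown genes every DMSO library was above both jas-3-labelled libraries, and in 2 every DMSO library was below, where the groups did not overlap for 26.6% of all tested genes in either direction. PHS2, the cytosolic glucan phosphorylase, had 84.0 and 72.1 CPM in the jas-3-labelled libraries, 243, 196 and 259 CPM in the DMSO libraries and 76.7 and 52.7 CPM in WT (log2 fold change 1.58, SE 0.23, adjusted p = 0.00399, edgeR). ISA3, a debranching enzyme, had 38.6 and 32.7 CPM and then 88.0, 91.3 and 106 CPM, with WT at 42.9 and 29.9 CPM (log2 fold change 1.42, SE 0.22, adjusted p = 0.00484, edgeR). WT overlapped with the jas-3-labelled libraries in both genes. DPE2, which uses maltose in the cytosol, rose by 0.86 (adjusted p = 0.031, edgeR), and the beta-amylase BAM2, which shares 104 bases with AT4G00500, fell by 0.63 (adjusted p = 0.0445, edgeR). PHS2 and ISA3 were lost without jas-3 replicate 2 (0.0704 and 0.0821), DPE2 without any single library (0.0558 to 0.318) and BAM2 without either jas-3 replicate or DMSO replicates 2 and 3 (0.104 to 0.44). GWD1, which phosphorylates starch at the start of breakdown, had 109 and 126 CPM and then 220.3, 174 and 296 CPM, a difference that did not pass (log2 fold change 0.97, adjusted p = 0.0643, edgeR).

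Of 15 starch synthesis genes, 1 fell and none rose (1 and 2 with DESeq2). GBSS1, the granule-bound synthase that makes amylose, had 63.6 and 52.4 CPM in the jas-3-labelled libraries, 33.2, 29.9 and 28.3 CPM under DMSO and 52.8 and 55.0 CPM in WT (log2 fold change -0.93, SE 0.16, adjusted p = 0.0104, edgeR). WT and jas-3 overlapped above the DMSO libraries, and the call was lost without jas-3 replicate 1 (0.158). BE3, a branching enzyme, had a log2 fold change of 0.61 that did not pass (adjusted p = 0.0776, edgeR). None of 18 sucrose and trehalose phosphate genes and none of 12 carbon starvation genes passed, and the smallest adjusted p of these lists were 0.411 and 0.175 in edgeR. At an unadjusted p under 0.05 in edgeR there were 2 and 3 genes, beside 2488 of all 22359 tested. In DESeq2, 0 and 1 passed, beside 720 of all 22125 tested. DIN10, a dark-induced raffinose synthase gene, had 125 and 112 CPM and then 297, 232 and 186 CPM, without passing (log2 fold change 1.01, adjusted p = 0.175, edgeR).

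Of 14 nitrogen assimilation genes, 2 fell and none rose, and with DESeq2 2 fell and 2 rose. NIA2, the main nitrate reductase, had 267 and 304 CPM in the jas-3-labelled libraries, 114, 91.6 and 85.4 CPM in the DMSO libraries and 138 and 191 CPM in WT (log2 fold change -1.56, SE 0.21, adjusted p = 0.00216, edgeR). The jas-3-labelled libraries were the highest of these groups. GLU1, the ferredoxin-dependent glutamate synthase, had 286 and 358 CPM and then 158, 110.3 and 187 CPM, with WT at 267 and 308 CPM (log2 fold change -1.08, SE 0.21, adjusted p = 0.0214, edgeR). It was lost without jas-3 replicate 1 or 2 or DMSO replicate 1 or 2 (0.0651, 0.197, 0.0649 and 0.0595).

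**Figure D5:**
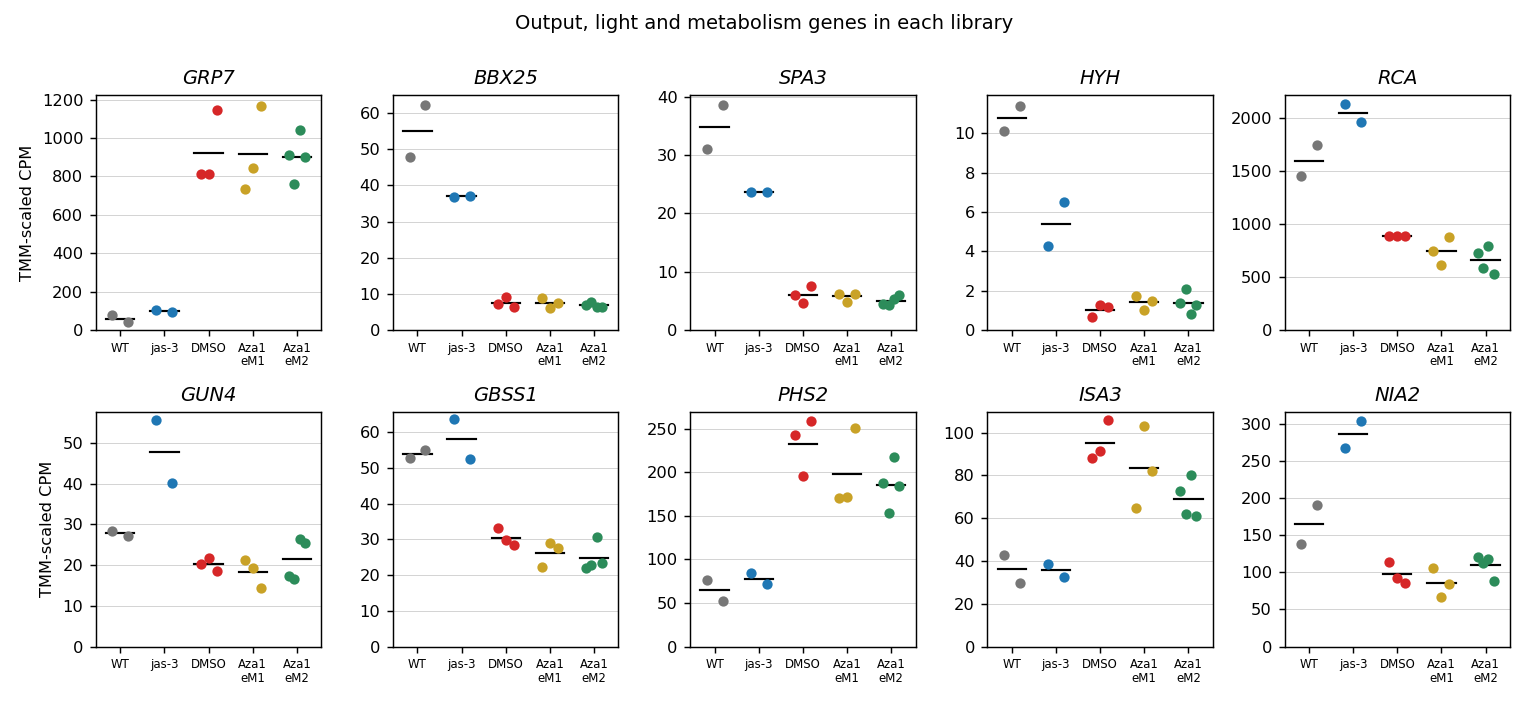
CPM of 10 output, light and metabolism genes in each library, on linear axes that start at 0, with 1 point per library and a black line at the group mean. GRP7, PHS2 and ISA3 are higher in the DMSO libraries than in both jas-3-labelled libraries, and BBX25, SPA3, HYH, RCA, GUN4, GBSS1 and NIA2 are lower.

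Lists for chemical and stress responses held no gene past the test in edgeR. None of 18 detoxification, 12 methionine sulfoxide reductase, 8 heat shock and 9 cold response genes tested passed an adjusted p of 0.05 in edgeR. Their median log2 fold changes were 0.05, 0.16, -0.50 and 0. Of these 47 genes, 6 had an unadjusted p under 0.05 in edgeR, beside 2488 of all 22359 tested. In DESeq2, 2 of the 47 passed, beside 720 of all 22125 tested. The smallest adjusted p of the 47 in edgeR was 0.108, for the glutathione transferase GSTF8, with 114 and 84.1 CPM in the jas-3-labelled libraries and 54.9, 60.1 and 29.9 CPM in the DMSO libraries. MSRA2 and MSRB5, which repair oxidized methionine, had log2 fold changes of 0.33 and 0.60 (adjusted p = 0.534 and 0.56, edgeR). HSFA2, a heat shock factor, had 1.37 and 1.51 CPM and then 0.192, 0.382 and 0.530 CPM without passing (log2 fold change -1.97, adjusted p = 0.225, edgeR). The markers of silique tissues had median log2 fold changes of 0.65 for storage proteins, -0.26 for fruit wall, -0.44 for seed coat, -0.27 for endosperm, -0.02 for embryo and -0.03 for floral organs and pollen.

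Outside the lists, 16 genes were called higher and 19 lower by the stricter rule. MEE14, named after the arrest of embryos in its mutant, had 14.7 and 12.1 CPM in the jas-3-labelled libraries, 94.8, 85.9 and 99.8 CPM under DMSO and 5.33 and 5.05 CPM in WT (log2 fold change 2.80, SE 0.18, adjusted p = 1.12e-05, edgeR). AT1G56300, a DnaJ-domain protein gene, had 4.53 and 6.68 CPM and then 36.8, 43.9 and 40.3 CPM, with WT at 10.9 and 12.9 CPM (log2 fold change 2.85, adjusted p = 1.12e-05, edgeR). JMJD5, a jumonji-domain protein tied to the clock, rose by 2.68, BBX13 by 2.01, AT1G11210 by 3.72 and AT3G62550 by 2.41 on the log2 scale. MEE14 and BBX13 hold 1 and 2 evening elements in the windows described above. Among the lower genes, AT1G64500, a glutaredoxin family gene, had 30.3 and 38.3 CPM in the jas-3-labelled libraries, 3.35, 3.86 and 5.05 CPM under DMSO and 39.5 and 56.6 CPM in WT (log2 fold change -3.07, SE 0.21, adjusted p = 1.12e-05, edgeR). UNE10, a bHLH factor of the phytochrome-interacting family, fell by 2.68, BBX16 by 2.08, AFR, an F-box protein of phytochrome A signalling, by 2.01, AT2G15020 by 3.13 and AT3G59845 by 2.21 on the log2 scale. BBX13 and BBX16 fell below the stricter rule without jas-3 replicate 1 (log2 fold changes of 1.99 and -1.82) or DMSO replicate 3 (1.83 and -1.94), AFR without DMSO replicate 2 or 3 (-1.98 and -1.95), AT3G59845 without jas-3 replicate 1 (-1.89) and JMJD5 without jas-3 replicate 1 by its adjusted p (0.0105, edgeR).

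The precursor gene of a microRNA was among the genes called lower, and is described here after its values were seen. MIR163 (AT1G66725, chr1:24883931-24884559) had 13.1 and 10.1 CPM in the jas-3-labelled libraries, 1.46, 2.78 and 1.14 CPM in the DMSO libraries and 16.3 and 16.4 CPM in WT (log2 fold change -2.70, SE 0.43, adjusted p = 0.00628, edgeR). All DMSO libraries were below all others of these groups. Its mature product in RefSeq, at chr1:24884359-24884382 on the plus strand of TAIR10.1, is shown with its seed, bases 2 to 8, in capitals.
ath-miR163: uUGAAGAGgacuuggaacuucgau
The libraries were made from messenger RNA, so these counts are those of the precursor transcript and not of the mature microRNA. It targets mRNAs of methyltransferases that act on small acids.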

How the data were processed

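Messenger RNA of siliques was sequenced as read pairs, and the authors aligned the reads to TAIR10 with STAR, whose version is not given in the sources used here. The deposited files hold counts of reads per annotated feature, without normalization, and rows annotated as genes were used. DESeq2 is named in the study's methods for this step and for normalization, and how strands, overlapping genes and reads with several alignments were treated is not given. Of the counts from 1 to 20, 73.7% to 79.0% were even, so both mates of a pair were counted and the number of independent fragments is smaller than the count.

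The test was edgeR 4.0.16 (limma 3.58.1, R 4.3.3), with filterByExpr by group, TMM, all 14 libraries in one quasi-likelihood fit, the contrast DMSO minus jas-3 and Benjamini-Hochberg adjustment. The stricter rule has the thresholds of the study's methods, a log2 fold change of at least 2 with an adjusted p under 0.01. The study's results name a fold change of at least 2 instead, so the calls here cannot be set directly beside its lists. FPKM was computed from gene counts, which hold both mates of a pair, and the annotated gene span with introns. It is thus not a count of fragments per kilobase of transcript. Promoters were read from RefSeq TAIR10.1, whose chromosome lengths are those of the files, and 1 promoter is not reported here. Tables and plots were made in Python 3.11.15 with numpy 2.4.6, pandas 2.3.3 and matplotlib 3.10.9, and the script was tested on simulated data.

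The comparison and the 23 lists, which keep the 304 of 312 genes written whose symbol and ID the annotation pairs, were chosen with earlier results of these data known. Genes named with values are 10 clock genes, each list gene called by the stricter rule, the 2 genes of each list with the smallest adjusted p, and the 6 called higher and 6 called lower outside the lists with the smallest adjusted p. Other list members past the test were named after their values were seen. Of 111 genes named or called, 17 share bases with another gene. Alternatives were DESeq2 1.42.0, its size factors, other filters on low counts, both groups alone, a replicate block, counts divided by 2, the storage protein share as a covariate and leaving out each library. Transposable elements and intergenic regions were not analysed here. A lower bound on a fold sets the lowest DMSO library against 3 counts per library, which covers counting error alone.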

Additional observations from a re-analysis of the deposited data

Results flagged for a closer look

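The spread within the 4 libraries labelled Aza1 eM2 was examined for 68 genes picked by the naming rules above, and 4 were flagged. Such a flag is expected by chance for about 1 in 20 groups, and none bears on the DMSO or jas-3 libraries, whose groups are too small for it. COL9 had its highest library at 36.0 CPM and the other 3 between 28.3 and 28.7 CPM, a gap of 0.95 of the whole range, above Dixon's critical value. The same holds for GBSS1, at 30.7 CPM against 21.9 to 23.3 CPM (0.839). TT10 had its lowest library at 486 CPM against 563 to 577 CPM (0.85), and AT1G11210 at 15.1 CPM against 20.5 to 21.2 CPM (0.886).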

How the results depend on the processing

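Of 61 genes at an adjusted p under 0.05 followed through 13 alternatives, none changed direction, and in 698 of 792 fits they stayed under the threshold. The morning clock list had 10 or 11 lower genes and the evening list 5 to 8 higher genes in these alternatives, though not always the same ones: without DMSO replicate 3, RVE7 was lost (adjusted p = 0.0548, edgeR) and PRR7 passed (0.0352). The number of calls moved more. By the stricter rule, DESeq2 called 31 higher and 41 lower, and a fit of both groups alone 10 and 16. Leaving out 1 library gave 8 to 19 higher and 13 to 18 lower, where a lone jas-3 library is assumed to vary like the other groups. At an adjusted p under 0.05, DESeq2 gave 331 higher and 389 lower, both groups alone 69 and 86, and leaving out 1 library 52 to 124 and 69 to 226. Of the list genes, 76, 31 and 32 to 45 passed in these fits. The cause was not tested. Deviations of same-numbered libraries from their group mean correlated at 0.63 and 0.24, but jas-3 replicate 2 and DMSO replicate 3, which share no number, correlated at 0.46. The 2 jas-3 libraries deviate from their mean by equal and opposite amounts. These correlations are thus not independent of each other, and a pairing is not shown. With the replicate block, 15 genes were higher and 22 lower by the stricter rule, and 76 and 135 at an adjusted p under 0.05. Signs turned for markers that never passed. With the storage protein share as a covariate, log2 fold changes were 0.07 for MUM4, 0.02 for AMS and 0.02 for WOX8. Without 1 library they ran from -1.65 to 0.48 for MUM4 and from -0.63 to 0.04 for AMS, both highest without jas-3 replicate 1. Low counts, as for BBX30, and 2 jas-3 libraries limit which small differences could pass.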

Other observations

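Other called genes, described after their values were seen, include enzymes of stress metabolites that were already far below WT in the jas-3-labelled libraries. HPL1, a hydroperoxide lyase of green leaf volatiles, had 12.1 and 12 CPM in those libraries and 1.07, 1.53 and 2.04 CPM in the DMSO libraries, with WT at 404 and 591 CPM (log2 fold change -2.96, SE 0.40, adjusted p = 0.00207, edgeR). GolS1, a galactinol synthase, had 28.2 and 37.4 CPM and then 3.12, 4.15 and 5.55 CPM, with WT at 216 and 426 CPM (log2 fold change -2.94, SE 0.44, adjusted p = 0.00454, edgeR). It shares 43 bases with AT2G47170. In both genes the order of the groups was WT, jas-3 and DMSO, without overlap.

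Transport genes were among those called lower. PPT2, a phosphate translocator of the plastid envelope, had 7.42 and 5.47 CPM in the jas-3-labelled libraries and 0.843, 1.28 and 0.975 CPM in the DMSO libraries (log2 fold change -2.64), the chloride channel gene CLC-B fell by 2.06 and the ABC transporter gene ABCG19 by 2.31 on the log2 scale. Among the genes called higher, RbcX1, an assembly chaperone of Rubisco, had 2.52 and 2.06 CPM and then 14.0, 13.0 and 17.3 CPM (log2 fold change 2.69), CCL had 52.2 and 43.2 CPM and then 156, 208 and 273 CPM (log2 fold change 2.15), and NPH3, a partner of phototropin in bending to light, rose by 2.1. CLC-B shares 362 bases with AT3G27180, RbcX1 141 bases with AT4G04320 and NPH3 27 bases with AT5G64340 and other annotated genes. Reads of these genes may have been counted with them. DREB2C, a factor of heat and drought responses, had 0.888 and 1.74 CPM and then 7.32, 5.25 and 5.64 CPM (log2 fold change 2.21). AT1G11925, a Stig1 family gene, had 0 counts in the WT libraries and in the jas-3-labelled ones while DMSO libraries had 26, 26 and 58, at least 7.8-fold higher than 3 counts per library. It was not particular to DMSO, as every Aza1 library had between 30 and 40 counts.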
